A study of Mus musculus with 18 samples.

Results

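The genes of the interleukins and their receptors were followed in the hearts of irradiated mice. All genes whose symbol starts with Il and a digit were taken, whatever their level, which gave 82 of the 30072 genes measured. Of these, 37 encode ligands, 40 encode receptors or receptor subunits, and 5 encode inhibitors or other proteins. The test covered the 39 members that reached 0.23 CPM (counts scaled to the same library size in each mouse) in at least 6 mice, namely 7 ligands, 29 receptors and 3 others. The other 43 members stayed below this level and are described by their counts alone.

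RNA was sequenced from 18 CD-1 mice in 3 groups of 6: 1 control group and 2 groups that had received 25 Gy once and were sampled 2 weeks or 6 weeks later (post-IR). All mice were at least 8 weeks old, each group held males and females, and controls were matched by sex and litter. Isoflurane anesthesia was given to every group, controls included. By the methods of the study, controls also had CT imaging like the other mice, but no treatment dose. The labels give no sampling time for the controls. The labels name the tissue as septum and the radiation as gamma, whereas the methods of the study name ventricular tissue, X-rays to the whole heart and a sham procedure. CD-1 is an outbred stock, and each sample was 1 mouse. Bulk tissue was used, so that fewer cells of a type and less RNA per cell cannot be told apart.

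Interleukins are secreted messengers by which immune cells, vessel cells and fibroblasts steer one another. Most act through receptors made of a private chain, which sets which ligand is bound, and a shared chain, which carries the signal inward. Receptors of the IL-2, IL-4, IL-7, IL-15 and IL-21 group share the gamma chain (Il2rg) and signal through JAK kinases and STAT factors, as do receptors that use gp130 (Il6st). Receptors of the IL-1 and IL-18 group signal instead through MyD88, IRAK kinases and NF-kB, and IL-17 receptors also reach NF-kB. In the heart, IL-1β is known as an early signal of tissue injury, and its antagonist Il1rn occupies the same receptor without activating it.

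Total counts per mouse lay between 11522987 and 15501019, with a median of 13682449. Markers of heart muscle (Myh6, Tnnt2, Ttn, Actc1, Ryr2 and Myl2) were abundant in every mouse, with a summed level between 70120 and 104600 CPM. The share of mitochondrially encoded counts had a median of 23.2% in controls, 20.2% at 2 weeks and 17.4% at 6 weeks, and the scaling factors (TMM) rose in the opposite order, from 0.844 to 0.991 in controls to between 1.04 and 1.13 at 6 weeks. With library size in place of TMM, the median log2 difference of all genes moved to 0.15 at 2 weeks and 0.24 at 6 weeks, and called genes at 6 weeks were split 5494 higher to 326 lower in place of 2029 to 1731. Control replicate 4 stood apart in its cell type markers: the fibroblast markers summed to 2019 CPM in this mouse and to between 735 and 1050 in the other controls, and its macrophage markers to 264 against 105 to 162. Its atrial markers (Myl7, Sln, Myl4 and Nppa) summed to 1583 CPM, against 233 to 811 in the other controls, and those of 2-week replicate 5 to 1247. The labels give no sex for single mice, and 3 of 6 mice in each group, replicates 4 to 6, carried Y-linked transcripts.

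At 6 weeks post-IR, the ligands Il1b and Il34, the IL-1 antagonist Il1rn and 9 receptor chains stood higher than in controls. The test called 13 of the 39 members at an adjusted P under 0.05 (33.3%, against 25% of all 15054 genes tested). Of these, 12 rose (Il1b, Il34, Il1rn, Il18rap, Il2rb, Il10ra, Il21r, Il7r, Il2rg, Il6ra, Il17ra and Il17rc) and 1 fell (Il10rb).
Among all genes, 13.5% rose and 11.5% fell. Of the 39 members, 7 were called with a log2 fold change beyond 1 in size, as were 5.95% of all genes. The 6-week and control mice did not overlap in 7 members (Il18rap, Il1rn, Il2rb, Il10ra, Il7r, Il2rg and Il17ra), where 9.23% of all genes did not overlap. Il1rn and Il7r passed the filter only through the 6-week mice, where they were high, and this limits their part in these counts. The median log2 fold change was 0.30 over the 39 members, with 26 of them above 0, and -0.02 over all genes.

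At 2 weeks the median log2 fold change over the 39 members was 0.22, with 29 of them above 0, and -0.00153 over all genes. Il10ra and Il2rg alone were called, both higher, which is 5.13% of the 39 members beside 5.02% of all genes (3.09% higher and 1.93% lower). Neither had a log2 fold change beyond 1 in size, while 0.903% of all genes were called with one that large. No member's 2-week mice were clear of the control range, against 3.24% of all genes. Both calls lay close to the threshold, and neither held in the fit of the 2 compared groups only. The number of members called at 2 weeks fell to 0 when any one of control replicates 2, 3, 5 or 6, 2-week replicates 3, 5 or 6, or 6-week replicates 3 or 5 was left out, and to 1 without 2-week replicates 1 or 2 or 6-week replicates 1, 2, 4 or 6. Calls among all genes changed too, from 755 to 622, 453, 518 and 451 without control replicates 2, 3, 5 and 6. They were 512, 466 and 474 without 2-week replicates 3, 5 and 6, and 682 and 798 without 6-week replicates 3 and 5. At an unadjusted P under 0.05 there were 8 of the 39 members, a share near the 20.4% of all genes. All 8 were receptors, as were 29 of the 39 members tested.

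From 2 to 6 weeks, 5 members rose and none fell: Il1b, Il1rn, Il7r, Il2rb and Il10ra (12.8% of the 39, against 5.33% of all genes called and 3.31% called higher). Each of the 5 was also called against controls at 6 weeks. Il1rn and Il7r were among the 39 only through the 6-week mice, so their calls add little to this share. The 6-week and 2-week mice did not overlap in 5 members (Il1b, Il1rn, Il7r, Il2rb and Il18rap), against 3.54% of all genes. Both times share their controls, and each comparison is given with its own values.

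**Figure D1:**
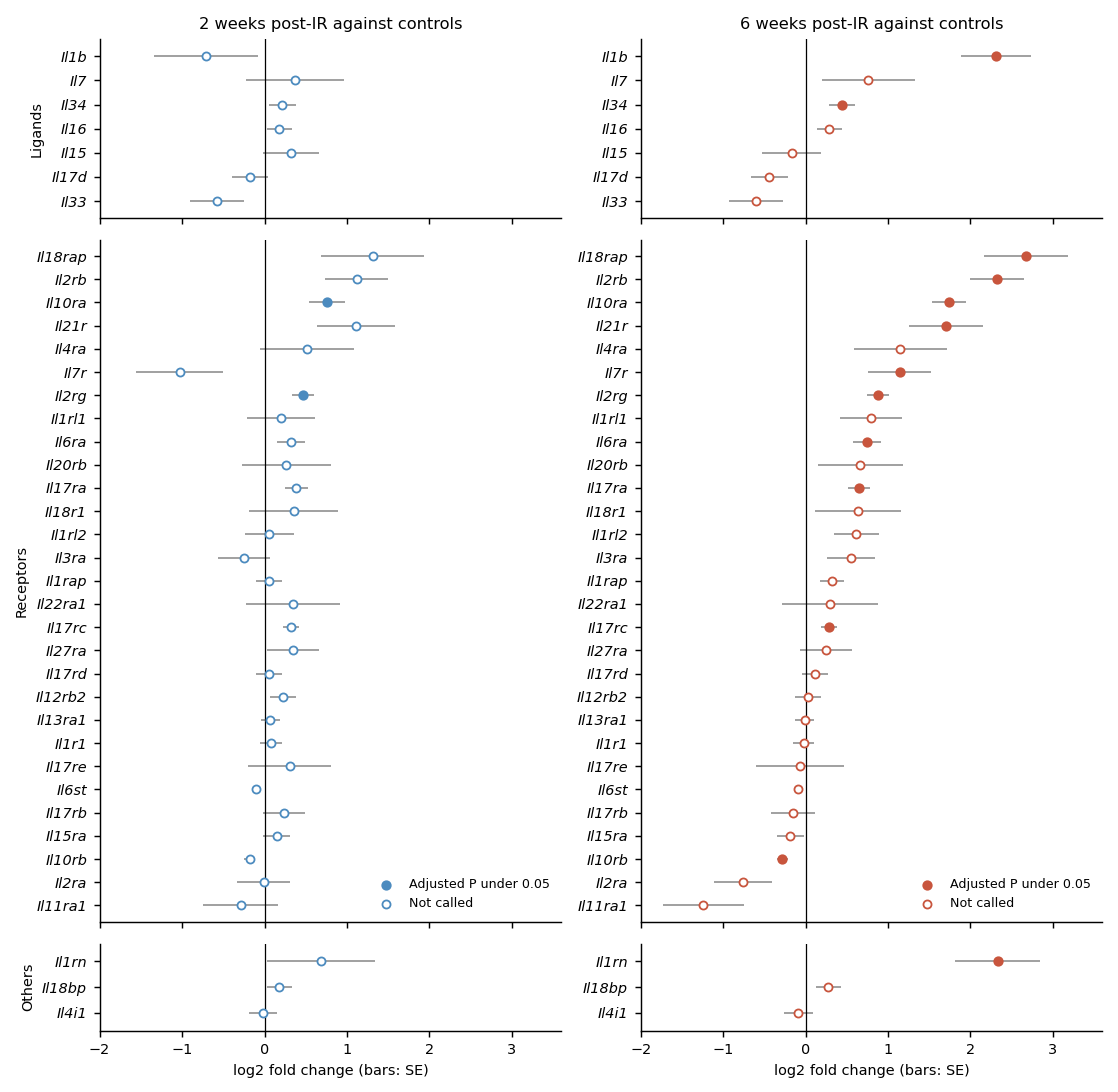
log2 fold changes of the 39 tested interleukin genes against controls at 2 weeks (left) and 6 weeks post-IR (right), with ligands, receptors and others in separate rows of panels. Points are the fitted values, bars are their SE, and filled points had an adjusted P under 0.05. At 2 weeks 2 points are filled and at 6 weeks 13, and Il10rb is the one filled point below 0.

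Levels within the family spanned a wide range. Per transcript length, the most abundant members were receptor chains shared among several cytokines: Il10rb, the second chain of the IL-10 and IL-22 receptors, had a median of 72.5 TPM (transcript numbers scaled to the same total in each mouse) over the 18 mice, and Il6st, or gp130, had 58.3. Il15ra followed with 22.8, Il13ra1 with 18.1 and Il2rg with 15.1, and no other member had a median above 10. Among ligands, Il34 was the most abundant at 5.79 TPM, followed by Il16 at 4.59 and Il33 at 3.22. The medians of 16 of the 39 tested members lay under 1 TPM, among them Il1b (0.771), Il2rb (0.440), Il1rn (0.293), Il18rap (0.174) and Il7r (0.131).

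**Figure D2:**
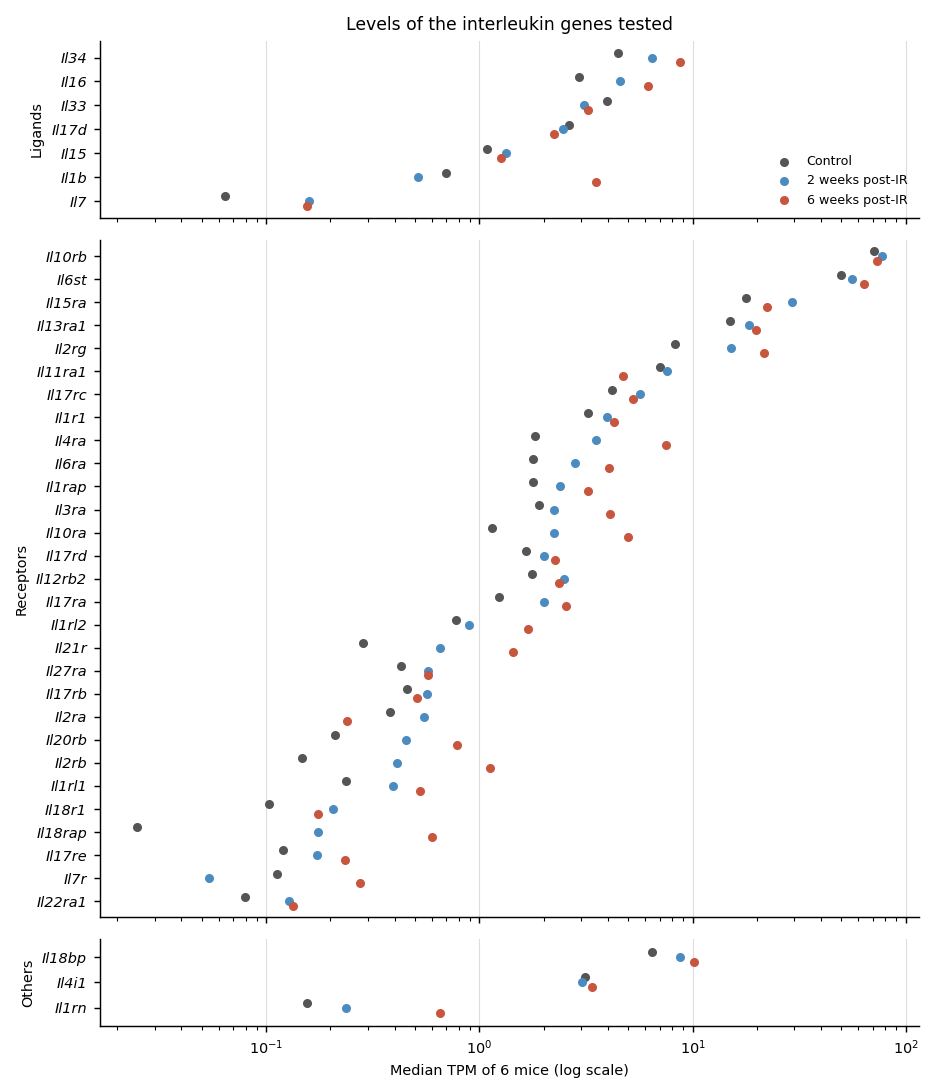
Median TPM of 6 mice for each tested interleukin gene, on a log scale, in controls (grey), at 2 weeks (blue) and at 6 weeks post-IR (red). Il10rb and Il6st sit at the top of the scale near 72.5 and 58.3 TPM. TPM were not scaled between mice, and shifts between groups in them include a shift of all genes, whose median log2 difference at 6 weeks was 0.29 with a pseudocount of 1.

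Il1b (ENSMUSG00000027398, chromosome 2, 129364570 to 129371139 of GRCm38), which encodes the injury cytokine IL-1β, changed the most among the ligands. In controls its level ran from 0.173 CPM to 1.67 with a median of 0.569, at 2 weeks from 0.321 to 0.513 with a median of 0.357, and at 6 weeks from 1.28 to 6.19 with a median of 2.5. All 6 mice at 6 weeks were above every 2-week mouse, and 5 of them were above every control. The control that reached 1.67 CPM was replicate 4. Counts of Il1b ran from 2 to 24 in controls, from 4 to 7 at 2 weeks and from 17 to 77 at 6 weeks. The fitted log2 fold change at 6 weeks was 2.31 against controls (edgeR adjusted P = 0.000688, SE 0.428), a 4.95-fold difference. Against 2 weeks it was 3.02 (adjusted P = 0.00221, SE 0.463), and at 2 weeks against controls it was -0.71 (adjusted P = 0.570, SE 0.631). Both 6-week calls held when any one mouse was left out.

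Il1rn (ENSMUSG00000026981, chromosome 2, 24336853 to 24351494), the receptor antagonist that opposes IL-1, was close to its detection limit in controls and at 2 weeks. It had no count in 2 controls and in 1 mouse at 2 weeks, and its highest level was 0.278 CPM in controls and 0.440 at 2 weeks. At 6 weeks it ran from 0.477 to 1.08 CPM with a median of 0.662, above all mice of both other groups. Its log2 fold change was 2.33 against controls (adjusted P = 0.00171, SE 0.515). Against 2 weeks it was 1.65 (adjusted P = 0.0355, SE 0.451), a call that was lost without any one of 8 of the 18 mice (2-week replicates 1 to 5 and 6-week replicates 3, 5 and 6), with an adjusted P up to 0.0819. Agonist and antagonist were thus both called higher at 6 weeks than in either other group. This pairing is limited because Il1rn passed the filter only through the 6-week mice. Their signalling receptor Il1r1 (control median 14.0 CPM, 6-week median 15.5) had a log2 fold change of -0.02 against controls (adjusted P = 0.927, SE 0.130).

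Sequences just upstream of annotated starts of Il1b, Il1rn and Il7r are shown because these genes were called higher at 6 weeks than in both other groups. They come from RefSeq, build GRCm38.p6, and hold the 250 bases before an annotated start, written 5′ to 3′ on the strand of the gene. Capitals mark matches, on either strand, to 3 motifs: the kB motif of NF-kB (GGG, any 5 bases, CC), the GAS motif TTCNNNGAA of STAT factors, and TATAAA. All 3 entries of Il1rn are shown, of which the last 2 overlap. The starts differ from the gene bounds given in the text. By those bounds, the Il7r stretch and the last 2 of Il1rn lie inside the gene. The first Il1rn stretch runs into the first bases of the gene, and the Il1b stretch lies outside it. Il10ra and Il2rb, the other members of this kind, are named only.
Il1rn, chr2:24336610-24336859, plus strand: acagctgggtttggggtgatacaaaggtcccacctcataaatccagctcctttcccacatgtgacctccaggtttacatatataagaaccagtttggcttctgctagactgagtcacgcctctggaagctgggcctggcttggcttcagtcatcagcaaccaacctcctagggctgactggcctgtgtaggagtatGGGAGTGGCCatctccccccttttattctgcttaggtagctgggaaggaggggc
Il1rn, chr2:24345041-24345290, plus strand: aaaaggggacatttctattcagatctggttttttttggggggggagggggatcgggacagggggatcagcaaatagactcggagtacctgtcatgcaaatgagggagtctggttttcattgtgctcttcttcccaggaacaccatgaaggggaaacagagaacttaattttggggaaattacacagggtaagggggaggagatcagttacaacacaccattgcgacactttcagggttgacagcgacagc
Il1rn, chr2:24345121-24345370, plus strand: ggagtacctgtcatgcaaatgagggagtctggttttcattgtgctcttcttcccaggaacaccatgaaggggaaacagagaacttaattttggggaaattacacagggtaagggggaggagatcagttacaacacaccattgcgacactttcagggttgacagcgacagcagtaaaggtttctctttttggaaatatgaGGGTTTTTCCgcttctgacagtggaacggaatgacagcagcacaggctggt
Il1b, chr2:129371140-129371389, minus strand: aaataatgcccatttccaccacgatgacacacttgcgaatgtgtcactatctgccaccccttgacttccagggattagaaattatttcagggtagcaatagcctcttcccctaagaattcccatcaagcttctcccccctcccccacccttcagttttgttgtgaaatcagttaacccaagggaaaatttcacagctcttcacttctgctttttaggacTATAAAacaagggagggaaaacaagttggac
Il7r, chr15:9529877-9530126, minus strand: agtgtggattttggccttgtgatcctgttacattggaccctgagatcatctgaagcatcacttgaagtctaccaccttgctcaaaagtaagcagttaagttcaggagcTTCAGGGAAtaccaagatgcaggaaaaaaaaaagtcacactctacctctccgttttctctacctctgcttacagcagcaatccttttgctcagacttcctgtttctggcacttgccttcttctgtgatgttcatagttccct

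The first Il1rn start had a kB match 54 to 45 bases upstream, with the letters GGGAGTGGCC, the third had one 51 to 42 bases upstream, with GGGTTTTTCC, and the second had no match to any of the 3 motifs. Il1b had TATAAA 31 to 26 bases upstream of its start. Il7r had a GAS match 142 to 134 bases upstream of a start that lies inside the gene bounds. These letters are common: 45.8% of the 32851 promoter entries of this length held the kB motif, 7.02% the GAS motif and 12.4% TATAAA. Of the 39 tested members, 31 had an entry. The kB motif was present in 4 of the 8 called members with an entry and in 13 of the 23 members not called. A member was counted if any of its entries had a match, whereas the 45.8% is a share of single entries.

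Il34 (ENSMUSG00000031750, chromosome 8, 110741829 to 110805924), a ligand of the macrophage growth factor receptor Csf1r, was the second ligand called. Controls ran from 3.52 to 5.92 CPM (median 3.90), 2-week mice from 3.45 to 5.64 (median 5.28) and 6-week mice from 4.48 to 7.26 (median 5.79). The groups overlapped, and 3 of 6 mice at 6 weeks were above every control. Its fitted log2 fold change at 6 weeks was 0.44 (adjusted P = 0.0473, SE 0.158). This call rested on the full set of mice: without any one of 14 of them (control replicates 1, 3, 5 and 6, and replicates 2 to 6 of each irradiated group) the adjusted P lay between 0.0531 and 0.103.

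The other 5 tested ligands were not called in any of the 3 comparisons. Il33, an alarmin of the IL-1 family stored in nuclei of stromal and endothelial cells, ran from 4.74 to 12.6 CPM in controls (median 9.27), from 2.49 to 9.62 at 2 weeks (median 6.00) and from 3.84 to 10.7 at 6 weeks (median 4.72). The groups overlapped at both times, and its log2 fold change was -0.60 at 6 weeks (adjusted P = 0.192, SE 0.324). Il17d had a log2 fold change of -0.44 at 6 weeks (adjusted P = 0.164, SE 0.224), which became -0.59 with an adjusted P of 0.0298 without control replicate 4. Il16, a chemoattractant for CD4 cells, had medians of 10.1, 12.8 and 13.9 CPM in the 3 groups and a log2 fold change of 0.29 at 6 weeks (adjusted P = 0.170, SE 0.148). Without control replicate 1 its value was 0.42 with an adjusted P of 0.0322. Of the 7865 exonic bases of Il16, 1202 are shared with Stard5 on the opposite strand. Il15, which maintains natural killer (NK) and memory T cells, had medians of 1.86, 1.94 and 1.68 CPM and a log2 fold change of -0.17 at 6 weeks (adjusted P = 0.784, SE 0.361). Il7, a growth factor for lymphocytes, passed the filter in 7 mice, at most 0.694 CPM, and its log2 fold change was 0.76 (adjusted P = 0.351, SE 0.561).

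**Figure D3:**
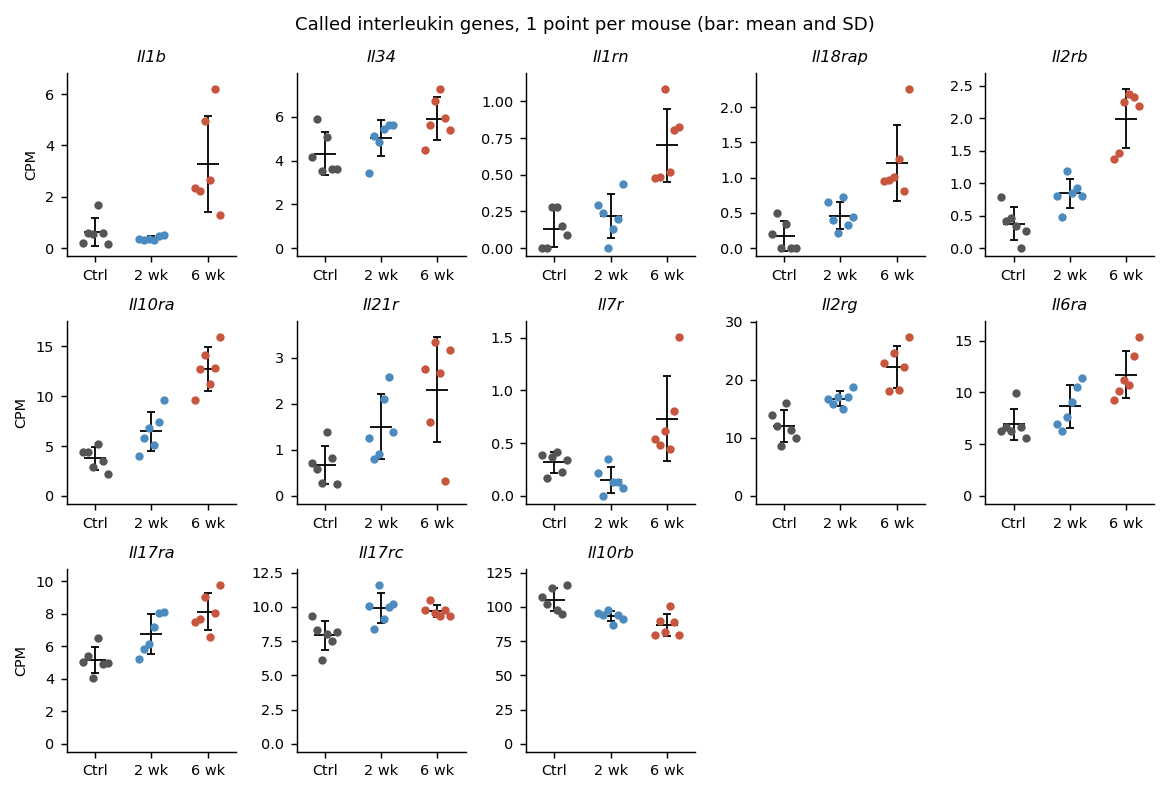
CPM of the 13 called interleukin genes, scaled between mice by TMM, with 1 point per mouse, the horizontal mark at the mean and bars of 1 SD. The panels start with the ligands Il1b and Il34 and the antagonist Il1rn, followed by the receptors. In Il1rn, Il18rap, Il2rb, Il7r, Il10ra, Il2rg and Il17ra every 6-week mouse lies above every control.

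Of the 7 tested receptor chains of the gamma chain group, 4 rose at 6 weeks (Il2rb, Il21r, Il7r and Il2rg), where 13.5% of all genes did. The median log2 fold change over the 7 was 1.14. Il7r was among the 7 only because the 6-week mice brought it past the filter. Il2rg itself (ENSMUSG00000031304, chromosome X, 101264378 to 101268255), the shared chain, rose at both times. It ran from 8.61 to 16.1 CPM in controls (median 11.7), from 15.0 to 18.8 at 2 weeks (median 16.9) and from 18.1 to 27.4 at 6 weeks (median 22.5). At 2 weeks 4 of 6 mice were above every control, and at 6 weeks all 6 were. Its fitted log2 fold change was 0.47 at 2 weeks (adjusted P = 0.0474, SE 0.133) and 0.88 at 6 weeks (adjusted P = 0.000107, SE 0.132). The 2-week call was lost without any one of 12 mice (control replicates 2, 3, 5 and 6, 2-week replicates 1, 2, 3, 5 and 6, and 6-week replicates 1, 3 and 5), with an adjusted P up to 0.106, and the 6-week call held throughout. Of the 2387 exonic bases of Il2rg, 728 are shared on the same strand with the predicted gene Gm20489, and reads could be split between the pair.

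Il2rb (ENSMUSG00000068227, chromosome 15, 78479256 to 78495271), the chain that IL-2 and IL-15 receptors have in common on NK and T cells, had no count in control replicate 5 and at most 0.781 CPM in controls (median 0.382). Its level ran from 0.481 to 1.18 CPM at 2 weeks (median 0.829) and from 1.37 to 2.37 at 6 weeks (median 2.21). The 6-week mice overlapped with neither group, and 5 of 6 mice at 2 weeks were above every control. Its fitted log2 fold change was 1.12 at 2 weeks (adjusted P = 0.0994, SE 0.384), 2.32 at 6 weeks (adjusted P = 6.21e-05, SE 0.329) and 1.20 between the times (adjusted P = 0.0201, SE 0.274). The value between the times was not called by limma voom (adjusted P = 0.0535) or the earlier form of edgeR (adjusted P = 0.0555). At 2 weeks it was 1.52 with an adjusted P of 0.0356 without control replicate 1, the highest control.

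Il7r (ENSMUSG00000003882, chromosome 15, 9505788 to 9530176), the IL-7 receptor chain of lymphocytes, was lowest at 2 weeks. Controls ran from 0.167 to 0.416 CPM, 2-week mice from 0 to 0.348 and 6-week mice from 0.445 to 1.5, and the 6-week mice overlapped with neither group. The log2 fold change was -1.03 at 2 weeks (adjusted P = 0.281, SE 0.528), 1.14 at 6 weeks (adjusted P = 0.0324, SE 0.382) and 2.17 between the times (adjusted P = 0.00917, SE 0.438). The call against controls was lost without control replicates 2, 5 or 6 or 6-week replicates 5 or 6, with an adjusted P up to 0.112. The value between the times was called without any one mouse.

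Il21r (ENSMUSG00000030745, chromosome 7, 125603429 to 125633570), which serves IL-21 on lymphocytes, had a control median of 0.650 CPM, a 2-week median of 1.32 and a 6-week median of 2.71. At 6 weeks 5 mice were above every control, and replicate 5 had 0.322 CPM, within the controls' range of 0.259 to 1.39. Its log2 fold change at 6 weeks was 1.70 (adjusted P = 0.00845, SE 0.444). At 2 weeks it was 1.11 (adjusted P = 0.193, SE 0.475).

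The remaining chains of this group were not called. Il4ra, the receptor chain for IL-4 and IL-13, spread widely within every group: it ran from 2.59 to 23.7 CPM in controls (median 8.93), from 3.62 to 29.0 at 2 weeks (median 15.1) and from 4.26 to 32.9 at 6 weeks (median 29.0). In every group at least 1 mouse lay under 5 CPM, namely control replicates 2, 3 and 6, 2-week replicates 2 and 3, and 6-week replicate 5. Its log2 fold change at 6 weeks was 1.15 (adjusted P = 0.152, SE 0.565). An antisense gene, Gm44876, shares 571 of its 6002 exonic bases. Il15ra, which presents IL-15, had medians of 18.3, 22.9 and 17.4 CPM and a log2 fold change of -0.19 at 6 weeks (adjusted P = 0.449, SE 0.165), and Il2ra had a value of -0.76 (adjusted P = 0.131, SE 0.355).

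Of the 2 chains of the IL-10 receptor, Il10ra rose at 6 weeks under all 34 alternatives, while the direction of Il10rb depended on the scaling. Il10ra (ENSMUSG00000032089, chromosome 9, 45253837 to 45269149), the ligand-binding chain found mainly on blood cells, ran from 2.16 to 5.20 CPM in controls (median 3.98), from 3.96 to 9.67 at 2 weeks (median 6.34) and from 9.67 to 15.95 at 6 weeks (median 12.8). At 2 weeks 4 of 6 mice were above every control, and at 6 weeks all 6 were above every control and 5 above every 2-week mouse. The log2 fold change was 0.76 at 2 weeks (adjusted P = 0.0492, SE 0.217), 1.74 at 6 weeks (adjusted P = 1.23e-05, SE 0.208) and 0.98 between the times (adjusted P = 0.0102, SE 0.194). The 2-week call was lost without any one of 14 mice (all but control replicate 4, 2-week replicates 1 and 4 and 6-week replicate 1), with an adjusted P up to 0.117. Both 6-week calls held without any one mouse.

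Il10rb (ENSMUSG00000022969, chromosome 16, 91406164 to 91425834), the chain used by many tissues for IL-10, IL-22 and type III interferons, ran from 95.1 to 116.1 CPM in controls, from 86.6 to 97.4 at 2 weeks and from 79.2 to 100.4 at 6 weeks. Of the 6 mice at 6 weeks, 5 lay below every control. Its log2 fold change at 6 weeks was -0.28 (adjusted P = 0.00375, SE 0.0654), and this direction depended on the scaling: with library size in place of TMM it was -0.02 (adjusted P = 0.825), and on log2(TPM + 1) it was 0.05 (adjusted P = 0.508). Of its 3808 exonic bases, 569 are shared on the same strand with the predicted gene Gm21970. The fall is thus one relative to the other genes of the same mice.

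Of 6 tested receptors of the IL-1 family, 1 rose at 6 weeks, beside 13.5% of all genes: Il18rap (ENSMUSG00000026068, chromosome 1, 40515362 to 40551705), the accessory chain that lets IL-18 signal on NK and T cells. It had no count in 3 of 6 controls and at most 0.500 CPM in the rest, ran from 0.209 to 0.719 CPM at 2 weeks (median 0.420) and from 0.804 to 2.26 at 6 weeks (median 0.989). The 6-week mice overlapped with neither group. The log2 fold change at 6 weeks was 2.68 against controls (adjusted P = 0.000674, SE 0.513) and 1.37 against 2 weeks (adjusted P = 0.0547, SE 0.410). The value against 2 weeks was called in 7 alternatives, by DESeq2 among them (adjusted P = 0.0353), and without control replicates 2, 3 or 6. Its partner Il18r1, the ligand-binding chain, had a log2 fold change of 0.64 at 6 weeks (adjusted P = 0.408, SE 0.519), and Il1rl1, the IL-33 receptor, had 0.79 (adjusted P = 0.137, SE 0.378).

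Of the 5 IL-17 receptors, all tested, 2 rose at 6 weeks, beside 13.5% of all genes. Il17ra (ENSMUSG00000002897, chromosome 6, 120463247 to 120487559), the chain common to IL-17 receptors, ran from 4.07 to 6.52 CPM in controls (median 5.01), from 5.21 to 8.14 at 2 weeks (median 6.66) and from 6.60 to 9.78 at 6 weeks (median 7.87). The 6-week mice did not overlap with controls, and the log2 fold change was 0.65 (adjusted P = 0.00185, SE 0.136). Il17rc (ENSMUSG00000030281, chromosome 6, 113471427 to 113483140), its partner for IL-17A and IL-17F, had medians of 8.12, 10.03 and 9.66 CPM and a log2 fold change of 0.29 at 6 weeks (adjusted P = 0.0366, SE 0.0974). That call was lost without control replicates 3, 5 or 6 or 6-week replicates 1, 2, 3 or 5, with an adjusted P up to 0.0784. At 2 weeks its log2 fold change was 0.32 (adjusted P = 0.0647, SE 0.0971), and it was called there without control replicate 1 (adjusted P = 0.0323) or 2-week replicate 2 (adjusted P = 0.0481). The ligands Il17a and Il17f had no count in any mouse.

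Of 5 tested receptors of the gp130 and IL-12 type, Il6ra alone was called, at 6 weeks, where 25% of all genes were called. Il6ra (ENSMUSG00000027947, chromosome 3, 89864059 to 89913196), which gives IL-6 access to gp130, ran from 5.61 to 9.92 CPM in controls (median 6.48), from 6.26 to 11.4 at 2 weeks (median 8.34) and from 9.25 to 15.4 at 6 weeks (median 10.99). At 6 weeks 5 of 6 mice were above every control, and the highest control was replicate 4. The log2 fold change was 0.75 (adjusted P = 0.00314, SE 0.170). Il6st itself had medians of 261.4, 250.5 and 253.1 CPM and a log2 fold change of -0.09 at 6 weeks (adjusted P = 0.252, SE 0.0522). On log2(TPM + 1), where all genes shift upward, it was 0.32 (adjusted P = 0.00133), so its direction depended on the scaling. Il13ra1, which pairs with Il4ra, had a log2 fold change of -0.01 (adjusted P = 0.953, SE 0.115).

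Il11ra1, the receptor of IL-11, is described because of its spread among mice, seen in the data. It stood at 20.7 CPM in control replicate 4 and 18.8 CPM in 2-week replicate 2, and between 2.25 and 6.27 CPM in the other 16 mice. Its log2 fold change at 6 weeks was -1.24 (adjusted P = 0.0756, SE 0.495) and became -0.62 (adjusted P = 0.323) without control replicate 4. It was called by DESeq2 (adjusted P = 0.0317), with the 2 compared groups only (adjusted P = 0.0452) and without 2-week replicate 2 (adjusted P = 0.0211). A near-identical copy, Il11ra2, had at most 3 counts in any mouse, and reads could be split between the pair.

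**Figure D4:**
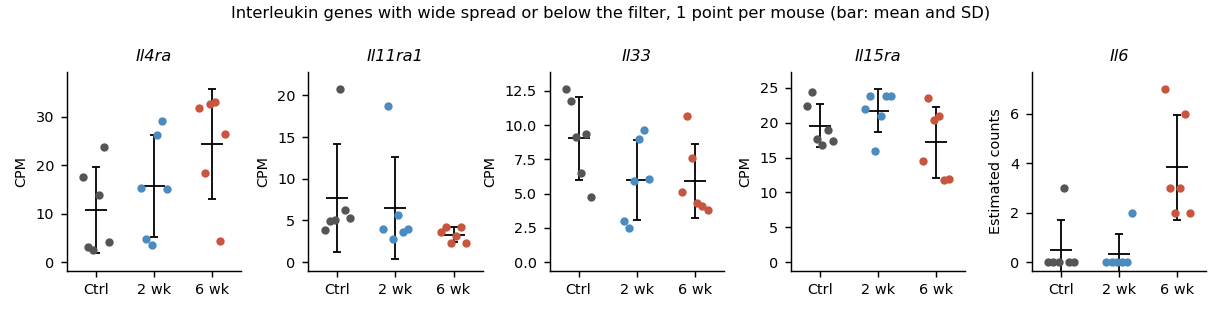
Interleukin genes with a wide spread among mice (Il4ra, Il11ra1, Il33 and Il15ra, in CPM) and Il6, which stayed below the filter (estimated counts), with 1 point per mouse, the horizontal mark at the mean and bars of 1 SD. Il4ra mice lie both under 5 CPM and above 20 CPM in every group. Il11ra1 has single mice at 20.7 and 18.8 CPM, and Il6 has counts in all 6 mice at 6 weeks.

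Several receptor genes lie side by side in the genome, and calls differed between neighbours. On chromosome 1 the genes Il1r1, Il1rl2, Il1rl1, Il18r1 and Il18rap lie between 40225080 and 40551705, and of these 5 Il18rap was called at 6 weeks. On chromosome 7 Il4ra ends at 125579474 and Il21r starts at 125603429, and on chromosome 6 Il17re ends at 113470758 and Il17rc starts at 113471427. In both pairs the second gene was called and the first was not. The difference between neighbours in log2 fold change was not tested.

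Inhibitors other than Il1rn were not called. Il18bp, a secreted protein that captures IL-18, had medians of 7.19, 8.29 and 9.02 CPM and a log2 fold change of 0.28 at 6 weeks (adjusted P = 0.20, SE 0.150). Il4i1, an amino acid oxidase that carries the name of IL-4, had -0.09 (adjusted P = 0.767, SE 0.173). Of its 4080 exonic bases, 3423 are shared with Tbc1d17 on the opposite strand and 97 with Nup62 on the same strand. Whether counting used strand is not given, so reads of these genes could be part of its level.

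Below the filter were 43 members: 30 ligands, 11 receptors and 2 others. Of these, 12 had no count in any mouse (among them Il2, Il3, Il9, Il17a, Il17f and Il21), and the other 31 had at most 8 counts in any mouse. Ligands of the T helper cells were thus near or at 0 in whole tissue: Il4 had 3 counts over all 18 mice, Il13 had 2, Il10 had 8 and Il5 had 20. Il11ra2 and Il13ra2 were among the receptors, with 20 and 13 counts over all mice. The members just inside the filter were Il7 (7 mice at or above 0.23 CPM), Il1rn, Il7r and Il22ra1 (11 mice each). Just outside it were Il12a and Il1f9 (4 mice each) and Il6 and Il18 (3 mice each). For Il1rn and for Il7r, every 6-week mouse was among the 11, and neither would have passed without that group.

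Il6 followed a pattern like that of Il1b, at lower counts. It had 3 counts in control replicate 4 and 0 in the other controls, 2 counts in 1 mouse at 2 weeks and 0 in the others, and between 2 and 7 counts in every mouse at 6 weeks. The sums were 3, 2 and 23 counts, and their CPM at 6 weeks was 8.53 times that of controls (exact 95% interval 2.58 to 44.4, counting error only). In a fit with no filter its log2 fold change at 6 weeks was 2.57 (edgeR adjusted P = 0.0441, SE 0.884) against controls and 3.11 (adjusted P = 0.0625, SE 0.934) against 2 weeks. Il18 had counts in all 6 mice at 6 weeks, between 2 and 8, and in 2 controls, with a log2 fold change of 1.76 in the same fit (adjusted P = 0.165, SE 0.835).

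Genes that work with the interleukins were followed in 3 lists. Of 17 related cytokines and shared chains, all tested, 8 rose and 1 (Ctf1) fell at 6 weeks, beside 13.5% of all genes higher and 11.5% lower, and the median log2 fold change was 0.49. Crlf2, the receptor of Tslp, had a log2 fold change of 0.94 (adjusted P = 0.000125), and Csf2rb, the shared chain of the IL-3 and IL-5 receptors, had 1.85 (adjusted P = 0.000592). The macrophage growth factor Csf1 had 0.49 (adjusted P = 0.000986), and Csf1r, the receptor it shares with Il34, had 0.77 (adjusted P = 0.00160). Lif, a gp130 cytokine, had 1.67 (adjusted P = 0.00249) at 6 weeks and 1.64 (adjusted P = 0.0157) at 2 weeks. It alone of the 17 was called at 2 weeks, beside 5.02% of all genes.

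Of 18 JAK, STAT and SOCS genes, 9 rose at 6 weeks and none fell (13.5% and 11.5% of all genes), with a median log2 fold change of 0.22. At 2 weeks 5 rose, beside 3.09% of all genes. Ptpn6, a phosphatase of blood cells that ends cytokine signals, had 1.51 (adjusted P = 5.41e-05) at 6 weeks. Stat2 had 1.15 (adjusted P = 0.000327), and Stat4, which serves IL-12 in lymphocytes, had 2.77 (adjusted P = 0.000243). Socs3, the feedback inhibitor induced through gp130, had 0.58 (adjusted P = 0.0433) at 2 weeks and 1.0 (adjusted P = 0.000198) at 6 weeks. Jak3, the kinase that binds the gamma chain, had a difference of 0.00 on the log2 scale at 6 weeks (adjusted P = 0.995, SE 0.145).

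Of 20 genes of the MyD88, IRAK and NF-kB route, 7 rose and 2 (Tollip and Tab1) fell at 6 weeks, against 13.5% and 11.5% of all genes, and the median log2 fold change was 0.13. The NF-kB subunits Nfkb2, Rela and Relb had 0.33 (adjusted P = 0.00275), 0.33 (adjusted P = 0.00325) and 0.45 (adjusted P = 0.0120). Irak2, a kinase of the IL-1 receptor, had 0.47 (adjusted P = 0.00480), and Tollip, an adaptor that restrains the receptor, had -0.26 (adjusted P = 0.00190). Casp1, the protease that matures IL-1β and IL-18, had 0.85 (adjusted P = 0.0194).

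Some markers of white blood cells were also higher at 6 weeks than in controls, and others were not called. Macrophage markers (Adgre1, Csf1r, Cd68, C1qa, C1qb, Fcgr1 and Mrc1) summed to 105 to 264 CPM in controls, 181 to 236 in 2-week mice and 246 to 348 in 6-week mice, and 6 of the 7 (all but Fcgr1) rose at 6 weeks. Dendritic cell markers (4 genes) summed to at most 2.57 CPM in controls and to between 4.65 and 18.5 at 6 weeks, where all 4 rose. T cell markers (7 genes, 4 tested) summed to 1.20 to 2.01 CPM in controls and to 3.16 to 4.57 at 6 weeks, where Lck and Cd8a rose and Cd3e and Cd4 were not called (log2 fold changes 0.82 and 0.81, adjusted P = 0.0717 and 0.0821). NK cell markers (4 genes, 2 tested) summed to at most 0.486 CPM in controls and to between 1.25 and 3.25 at 6 weeks, where both tested markers (Nkg7 and Gzma) rose. B cell markers (4 genes, 3 tested) summed to at most 0.716 CPM in controls and to between 1.13 and 2.48 at 6 weeks, where Cd79a and Cd79b rose. Counts of the defining T and NK cell genes were low in every group: Cd3d and Trac had at most 7 counts in any mouse, Cd3g at most 5, Cd3e at most 12, and Cd4 at most 31. Cd3d had a mean of 0.034 CPM in controls and 0.361 at 6 weeks, and Cd3e had 0.325 and 0.602. Ncr1 had at most 4 counts in any mouse and none in controls.

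Neutrophil markers (5 genes, 2 tested) summed to at most 3.47 CPM in controls and between 1.87 and 5.19 at 6 weeks, and Csf3r, with means of 1.19 and 3.01 CPM, rose. The other tested neutrophil marker, S100a9, had a log2 fold change of -0.91 (adjusted P = 0.391), S100a8 had means of 0.107 and 0.0909 CPM, and Ly6g had at most 1 count in any mouse. Mast cell markers (5 genes, 2 tested) summed to 7.03 to 12.8 CPM in controls and to 11.2 to 16.2 at 6 weeks, of which Kit, with means of 8.55 and 12.7 CPM, was the most and rose. Mcpt4 had a log2 fold change of -0.32 (adjusted P = 0.718), Cpa3 had means of 0.0464 and 0.025 CPM, and Fcer1a had no count. Among markers of the other cells, 5 of 6 heart muscle genes fell at 6 weeks, 2 of 5 endothelial genes (Pecam1 and Cdh5) rose and 1 (Tie1) fell, 1 of 5 fibroblast genes (Pdgfra) fell, and none of the 4 mural, 4 atrial or 3 tested markers of type 2 innate lymphoid and regulatory T cells was called (Gata3 had a log2 fold change of -0.80, Rora -0.17 and Foxp3 0.46). The 6-week mouse with the highest macrophage and dendritic sums, replicate 6 (348 and 18.5 CPM), was the highest of its group for 6 of the 13 called members (Il10ra, Il18rap, Il7r, Il2rg, Il6ra and Il17ra). It was the lowest for Il1b (1.28 CPM) and Il17rc (9.33 CPM) and lay in between for Il1rn, Il34, Il2rb, Il21r and Il10rb. The part of these cell types in the interleukin values was not tested.

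**Figure D5:**
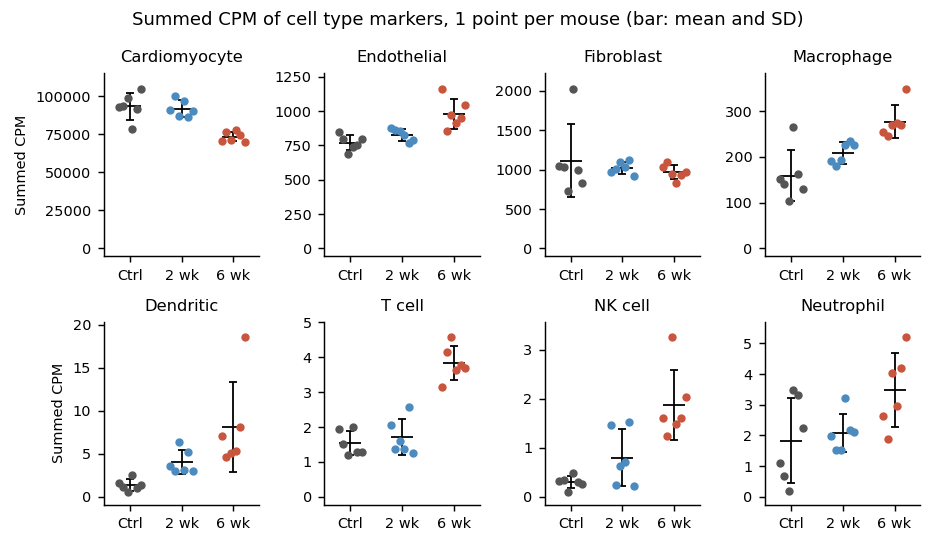
Summed CPM of the markers of 8 cell types, with 1 point per mouse, the horizontal mark at the mean and bars of 1 SD. Macrophage sums run from 105 to 264 in controls and from 246 to 348 at 6 weeks, T cell sums from 1.20 to 2.01 and from 3.16 to 4.57, and control replicate 4 lies above the other controls in the fibroblast panel at 2019.

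Calls were also counted without the mice that stood apart. Without control replicate 4, 2 members were called at 2 weeks, 16 at 6 weeks and 6 between the times. Without 6-week replicate 6, the numbers were 1, 12 and 4. Of all genes, 862, 3932 and 994 were called without control replicate 4, and 737, 3130 and 330 without 6-week replicate 6. With all mice, 755, 3760 and 802 of all genes were called. The groups were also compared separately in mice with and in mice without Y-linked transcripts. All 13 members called at 6 weeks, both called at 2 weeks and all 5 called between the times kept their direction in each set. These members had been called on the same mice, so a kept direction was likely beforehand. The split is thus no separate test of the calls.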

How the data were processed

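RNA of the cardiac septum of 18 CD-1 mice, 6 per group, was sequenced by the authors from KAPA RNA HyperPrep libraries. The authors aligned reads with STAR on GRCm38, estimated transcript abundance with Salmon 1.0 and used tximport to obtain values per gene. They deposited estimated counts, with no normalization between mice, and TPM, in which each mouse is scaled on its own by transcript length and depth (here for levels and alternatives). Whether counting used strand is not given in the sources used here.

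edgeR 4.0.16 under R 4.3.3 took the estimated counts after rounding. Genes reaching 0.23 CPM (about 3 counts at this depth) in at least 6 mice were kept (15054 of 30072), scaled by TMM and fitted with a quasi-likelihood model of the 3 groups (legacy = FALSE). Each pair of groups was compared with a two-sided quasi-likelihood F test, with Benjamini-Hochberg adjustment over all genes of a comparison. A gene was called at an adjusted P under 0.05, and rose or fell only where called. CPM are scaled by TMM, and a fold change is given on the log2 scale with its SE. The code was tested on simulated counts with known changes. Intervals and floors cover counting error only.

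Symbols and coordinates came from GENCODE M21 (29301 genes with a symbol), and promoters from RefSeq, GRCm38.p6. Named genes are the called members, the tested ligands and the 5 other tested members with the highest mean CPM; of the 3 pathway lists, up to 5 genes with the smallest adjusted P, of which 1 is not reported here. Il6, Il11ra1, Il18, Jak3, Casp1 and the further members given with values were added once their values were known. The members and lists were chosen with earlier results of these data known. Alternatives used DESeq2 1.42.0 and limma 3.58.1, other scalings and filters, TPM with pseudocounts of 1 and 0.1, the replicate number as a block and each mouse left out in turn. A covariate for Y-linked transcripts was added after seeing the data. No pair of mice had identical counts.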

Additional observations from a re-analysis of the deposited data

Results flagged for a closer look

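In 7 of the 69 sets of 6 mice of the named genes, 1 mouse lay far from the other 5 by Dixon's criterion (3.45 sets are expected by chance). Control replicate 4 was the highest control for Il1b (1.67 CPM, the next 0.605), Il6ra (9.92, the next 6.67) and Il7 (0.416, the next 0.195). The 6-week replicate 6 was the highest of its group for Il18rap (2.26 CPM, the next 1.26) and Il7r (1.5, the next 0.804). At 2 weeks replicate 3 was lowest for Il15ra (16 CPM, the next 20.9) and replicate 1 lowest for Il34 (3.45, the next 4.87).

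The change against controls differed between the 2 times, by the direct comparison of 6 with 2 weeks (edgeR, log2 scale), for Il1b (3.02, adjusted P = 0.00221), Il7r (2.17, adjusted P = 0.00917), Il1rn (1.65, adjusted P = 0.0355), Il2rb (1.20, adjusted P = 0.0201) and Il10ra (0.98, adjusted P = 0.0102). Against controls, the fitted values of Il1b and Il7r were below 0 at 2 weeks and above 0 at 6 weeks, and neither 2-week value was called.

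Il6 lay below the filter on low counts and had a log2 fold change of 2.57 at 6 weeks in the fit without a filter (edgeR adjusted P = 0.0441), with counts in 6 of 6 mice at 6 weeks and in 1 control.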

How the results depend on the processing

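At 2 weeks, 2 members were called, and the number was 4 by DESeq2, 1 by limma voom with sample quality weights, 5 with library size only, 5 on log2(TPM + 1) and 7 on log2(TPM + 0.1). It was 0 by limma voom, with the 2 compared groups only, with no filter and with the replicate block, and 0 to 3 with 1 mouse left out. Of all genes, 755 were called at 2 weeks, 1229 by DESeq2, 789 by limma voom with sample quality weights and 1789 with library size only. The number was 2813 on log2(TPM + 1), 3026 on log2(TPM + 0.1) and 680 by limma voom. It was 663 with the 2 compared groups only, 573 of 21258 with no filter and 586 with the block. At 6 weeks against controls, 13 were called, 22 on log2(TPM + 1) and log2(TPM + 0.1), 21 on log2(TPM + 1) with no filter, 18 (all higher) with library size only, 12 with the replicate block and 10 to 16 with 1 mouse left out. Of all 15054 genes, 3760 were called at 6 weeks, 7472 on log2(TPM + 1) and 7463 on log2(TPM + 0.1). With library size only it was 5820 (5494 higher), with the block 3549, and on log2(TPM + 1) with no filter 7181 of 21395. The larger member counts thus came with more calls among all genes. Between the times, 5 were called, 3 by limma voom, by the earlier edgeR form and with 0.23 CPM in 13 mice, 4 with the block and 4 to 7 with 1 mouse left out. Of all genes, 802 were called between the times, 775 by limma voom and 627 by the earlier edgeR form. With 0.23 CPM in 13 mice it was 787 of 14013, and with the block 542.

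On TPM, where the median of all genes shifted upward, 4 members turned positive at 6 weeks: Il10rb (0.053 and 0.054 with pseudocounts of 1 and 0.1, and 0.053 with no filter), Il13ra1 (0.40, 0.42 and 0.40 in this order), Il1r1 (0.31 and 0.39, called with the filter) and Il6st (0.32 in all 3). Of 2333 pairs of a named value and an alternative, 2186 kept their side of the threshold (58 of them with another sign, in values that were not called), 92 lost and 44 gained a call and 11 reversed. The calls of Il10ra, Il17ra, Il18rap, Il1b, Il2rb, Il2rg, Il6ra and Il1rn at 6 weeks against controls, and of Il10ra, Il1b and Il7r between the times, held in every alternative that gave a value. Il34 was lost in 18 of 34, Il17rc in 11, Il7r against controls in 10 of 33, and Il21r by limma voom (adjusted P = 0.0579). Between the times, Il1rn was lost in 14 of 33 and Il2rb in 2 of 34, and at 2 weeks Il10ra was lost in 19 and Il2rg in 16; the cause was not tested.

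Replicate numbers are shared between groups, and in every group replicates 4 to 6 carried Y-linked transcripts while replicates 1 to 3 did not. Deviations of same-numbered mice correlated between -0.08 and 0.11, and 3 of 18 mice correlated best with their own number. Such weak correlations cannot decide whether same-numbered mice came from the same litter. Levels near 3 counts in some mice limit Il1b, Il1rn, Il7r, Il18rap, Il7, Il2rb and Il21r and all members below the filter.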
